A study of Mus musculus with 12 samples.

Results

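Wild-type C2C12 cells in differentiation medium (DM) were compared with wild-type C2C12 cells in growth medium (GM). C2C12 is an established line of mouse skeletal myoblasts, so both groups are cultures of 1 line. The arrays were taken by their labels, 2 of GM and 2 of DM, which is 4 of the 12 Illumina BeadChip arrays in the series. The other 8 arrays held cells in DM after transfection with siRNA pools. These were a scrambled sequence (siScramble) and siBRG1, siBAF60b and siBAF60c, against BRG1, BAF60b and BAF60c, with 2 arrays each. Arrays of all 6 groups entered the normalization, the probe filter and the spread used by the test. The siScramble arrays are also set beside the wild type for a few genes below. No fixed rule chose these genes, so they do not show how often siScramble and wild-type DM differed. Per the labels' protocols, siRNA was given in medium with 15% fetal bovine serum, the cells were moved after 36 h to differentiation medium with insulin, transferrin and selenium (ITS), and total RNA was taken 18 h later, of which 500 ng was labelled with Cy3. This text stood beside the wild-type samples too, whose transfection entry read "control". The sources used here do not give whether they met a transfection reagent or how long the GM cells were kept. The labels do not say that replicates came from separate cultures, and if they did not, the p-values measure technical spread only.

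Myoblasts divide while mitogens are present. When serum is withdrawn they leave the cell cycle, MyoD switches on myogenin and then the genes of the contractile apparatus, and the cells align and fuse into myotubes. Id proteins, which pair with the partners of MyoD but bind no DNA, hold this programme back in proliferating cells. The contractile genes are the best known part of it. Surface proteins, secreted signals, other transcription factors and metabolic enzymes also change as the cell stops dividing and starts to build muscle, and these 4 classes are described here.

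The cells carried the markers of their label. Levels are normalized intensities on a log2 scale, on which a difference of 1 is a 2-fold change, and levels of different genes are not compared because each probe has its own brightness. Cardiac actin Actc1 stood at 6.40 and 6.24 on the GM arrays and at 13.93 and 14.09 on the DM arrays. Myog, which encodes myogenin, stood at 5.64 and 4.63 in GM, detected on 1 of the 2 arrays, and at 11.77 and 11.83 in DM. The cyclin Ccnd1 was at 13.54 and 13.13 in GM and at 10.53 and 10.16 in DM. The groups lay far apart in all 3. Myod1 was at 8.61 and 8.90 in GM and at 9.0 and 7.56 in DM, and its groups overlapped (log2 difference -0.48, adjusted p = 0.404). Of the 7 myoblast and myocyte markers 6 were tested. Their summed linear level was 4246 and 3801 in GM and 26204 and 38960 in DM. Bright probes dominate such a sum, here Des in GM and Actc1 with Des in DM. Myf5 was below detection on all 4 arrays.

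Of 9 osteoblast and chondrocyte markers 5 were tested, with a summed level of 3692 and 4787 in GM and 2678 and 2959 in DM, nearly all of it from the factor Sox9. Alpl, Bglap and Ibsp were below detection on both DM arrays. Of 9 adipocyte markers 3 were tested (Lep, Lpl and Pparg), summing to 346 and 334 in GM and 162 and 136 in DM. The summed level of neuronal and glial markers (Map2 and Mbp, 2 of 9) was 55.5 and 79.2 in GM and 114 and 128 in DM. Macrophage, endothelial and epithelial lists had 1, 1 and 2 tested members, and their sums lay between 29.5 and 91.8 on every array, with each gene near or below the detection limit. Of these markers of other cell types Pparg alone was called, lower in DM, and the part of such cells in the results below was not tested. In a culture harvested whole, a lower share of cells that express a gene and less RNA per cell cannot be told apart.

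DM replicate 2 stood apart. Counts over all genes and over each class are given with and without it, and those of single lists where more rises than falls turned to as many or more falls. The correlation across 10346 genes between the 2 DM arrays was 0.945, against 0.979 to 0.988 within the other 5 groups. DM replicate 1 and GM replicate 1 lay on 1 BeadChip and DM replicate 2 and GM replicate 2 on another, so the medium was balanced over these chips. Mean signal before normalization was 839 and 475 on the GM arrays and 446 and 369 on the DM arrays, and the share of probes with a detection p under 0.05 ran from 28.1% on DM replicate 2 to 34.0% on GM replicate 1. With 2 arrays a group an exact permutation test cannot go below a p of 0.333, so the test used the spread of all 6 groups (limma, Benjamini-Hochberg adjusted p under 0.05 over all genes tested), and the median standard error (SE) of a difference was 0.31. This fit takes the same spread for every group, while the DM arrays lay further apart than those of the other groups. The SE and adjusted p given below can therefore be too small for genes that vary in DM. With array weights, which count less consistent arrays less (DM 0.33), the median SE was 0.41. Differences below are DM minus GM on the log2 scale, from 2 arrays per group. A gene whose probe was detected on neither array of its lower group has a lower bound only, written as at least N-fold and taken against the lowest detected signal, 5.20 to 5.53 on these arrays.

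In DM 2010 of 10346 genes were called (19.4%), 1086 of them higher (10.5%) and 924 lower (8.93%). With BeadChip as a block 2376 were called. On the 4 arrays alone the number was 730, and 665 with the replicate block. The count also turned on single arrays, with 1070 without GM replicate 1, 937 without GM replicate 2, 3471 without DM replicate 1 and 1378 without DM replicate 2, of which 685 were higher and 693 lower. The balance of directions followed the scaling. Median scaling shifted the median difference of all genes by -0.55 and gave 199 higher and 1167 lower, while median scaling on probes detected on every array shifted it by 0.26 and gave 1082 higher and 659 lower. All counts of rises and falls below are therefore relative to quantile-normalized arrays.

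Contraction and cell division genes moved most. A list of 122 tested sarcomere, contraction and other muscle genes held 79 that rose and 3 that fell (median 1.5), and a list of 138 replication and mitosis genes held 2 that rose and 94 that fell (median -1.24). The muscle list shares members with the 4 classes, among them Ckm, Pgam2, Atp2a1 and Chrng, which are counted in both. Outside both lists 1005 of 10086 genes rose and 827 fell. The 4 classes together had 1853 tested genes of 2380 on the array by name, with 275 higher and 200 lower, 25.6% called against 19.4% of all genes. Their median difference was 0.12, and that of all genes 0.07. The classes were divided into 38 lists, of which 24 had more rises than falls and 11 more falls. Without DM replicate 2 these numbers were 19 and 15. With median scaling they were 3 and 32, and the 3 were the sterol, citric acid cycle and amino acid lists. Genes in no list numbered 8265, of which 750 rose and 633 fell. Within the classes 243 genes were singled out by a fixed rule, the largest rises and falls in each list whose DM arrays both lay on one side of both GM arrays. Over all genes 53.0% had arrays that did not overlap in this way. With the 20 largest changes outside the lists there were 263 such genes, of which 80 were not called on the 4 arrays alone.

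**Figure D1:**
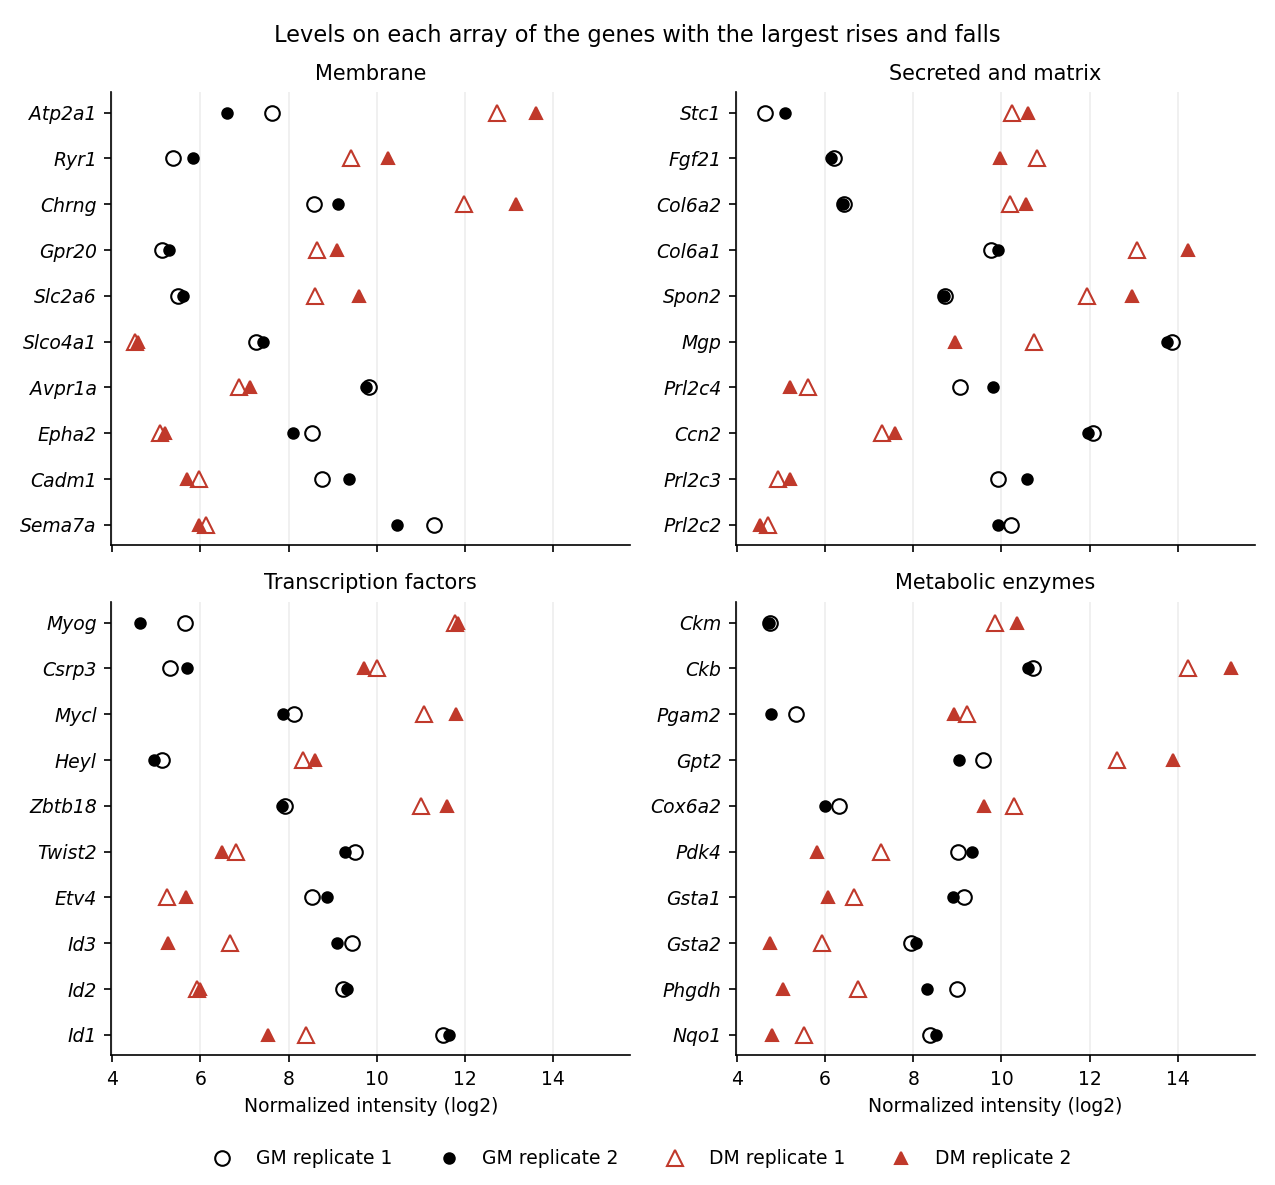
Normalized intensity (log2, horizontal axis) on each of the 4 arrays for the 5 genes with the largest rises and the 5 with the largest falls in each class, chosen by the rule in the text. Circles are GM and triangles DM, open for replicate 1 and filled for replicate 2. No gene drawn has overlapping groups, since the rule asked for this, and the DM arrays lie further apart than the GM arrays in Mgp, Id3 and Phgdh.

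Since MyoD and myogenin bind E-boxes, the promoter windows of the genes were searched for one form of that motif, CAGCTG, which reads the same on both strands. Windows ran from 250 bases before to 50 bases after the start of transcription (RefSeq, GRCm38.p6), and 8397 of the 10346 tested genes had one. The motif stood in a window of 26.0% of the genes that rose (228 of 878), 15.3% of those that fell (118 of 771) and 17.4% of those not called, and in 18.3% of all 27025 genes with a window. Without the sarcomere list it was in 24.8% of the genes that rose. Counted by window it was in 21.7% of those of genes that rose, 13.7% of those of genes that fell and 16.3% of all windows. Over all genes tested the motif was in 18.1% of genes and 15.7% of windows, and over genes not called in 15.1% of windows. These shares are descriptions, and a match is not evidence of binding. The windows of 4 genes are shown, from the gene of each class with the largest rise among the singled-out genes that hold the motif and are not on the sarcomere list. Capitals mark the motif.

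Tspan33: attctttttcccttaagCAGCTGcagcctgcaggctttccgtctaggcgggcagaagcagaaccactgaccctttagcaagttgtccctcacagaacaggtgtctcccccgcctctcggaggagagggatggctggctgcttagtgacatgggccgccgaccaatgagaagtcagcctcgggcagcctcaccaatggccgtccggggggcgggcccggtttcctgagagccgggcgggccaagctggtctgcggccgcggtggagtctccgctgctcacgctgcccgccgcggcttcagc
Fgf21: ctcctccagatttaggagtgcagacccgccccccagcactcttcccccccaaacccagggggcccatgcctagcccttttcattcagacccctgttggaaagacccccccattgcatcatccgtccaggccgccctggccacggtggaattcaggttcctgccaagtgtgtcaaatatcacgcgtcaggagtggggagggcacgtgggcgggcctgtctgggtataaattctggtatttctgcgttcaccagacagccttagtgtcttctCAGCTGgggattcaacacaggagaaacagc
Zbtb18: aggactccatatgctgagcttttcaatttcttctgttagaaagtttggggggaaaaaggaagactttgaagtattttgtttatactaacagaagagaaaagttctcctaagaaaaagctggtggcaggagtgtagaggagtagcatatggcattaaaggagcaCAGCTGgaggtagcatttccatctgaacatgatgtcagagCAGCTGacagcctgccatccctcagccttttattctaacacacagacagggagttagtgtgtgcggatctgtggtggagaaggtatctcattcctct
Acsl3: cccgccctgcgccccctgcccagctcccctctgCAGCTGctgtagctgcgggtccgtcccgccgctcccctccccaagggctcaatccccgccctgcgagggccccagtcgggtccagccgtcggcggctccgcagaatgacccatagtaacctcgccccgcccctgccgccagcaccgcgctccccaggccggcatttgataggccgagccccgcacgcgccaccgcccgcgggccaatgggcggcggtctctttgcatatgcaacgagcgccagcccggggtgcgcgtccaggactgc

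Each window is the 5′ flank and first bases of its gene, written 5′ to 3′ on the gene's strand. That of Tspan33, a tetraspanin, lies at chr6:29693964-29694263 on the plus strand, with the motif 233 bases before the start. The window of Fgf21, a secreted metabolic hormone, lies at chr7:45615441-45615740 on the minus strand, with the motif at base 21 of the transcript. Zbtb18, a zinc finger repressor, has 5 windows in the table, and the first that holds the motif, at chr1:177444403-177444702 on the plus strand, holds it 2 times. The window of Acsl3, an enzyme that activates long-chain fatty acids, lies at chr1:78657575-78657874 on the plus strand, with the motif 217 bases before the start.

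**Figure D2:**
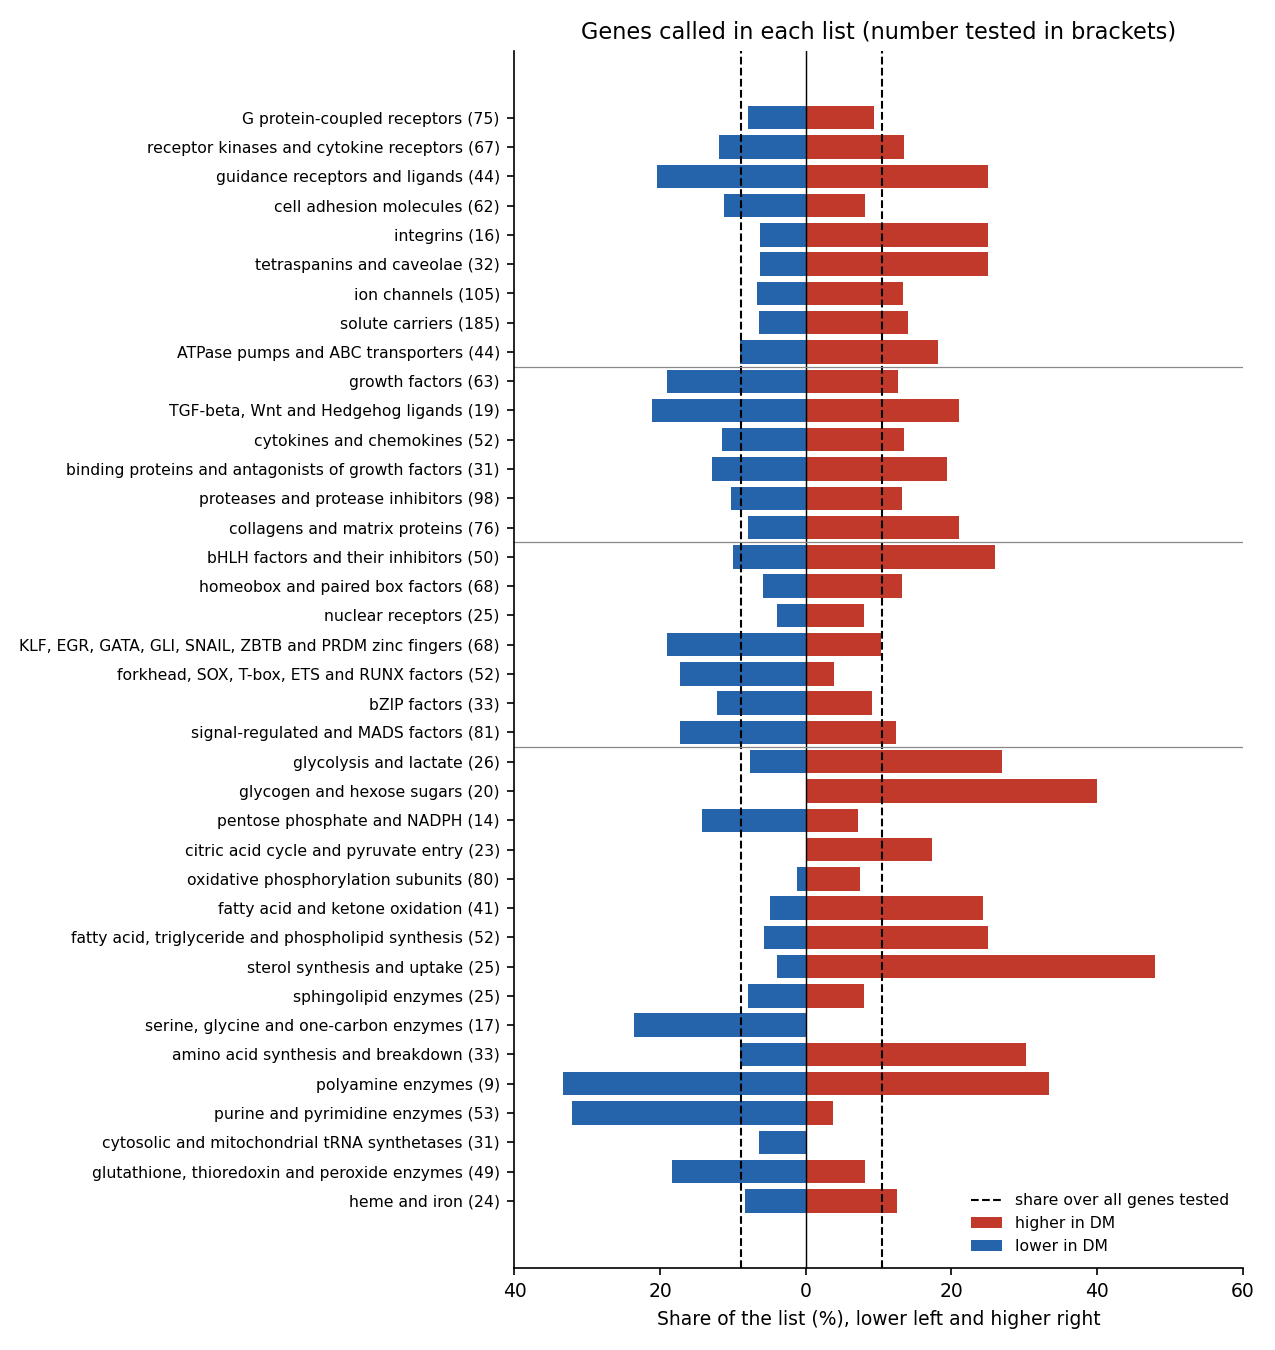
Share of the tested genes of each list (horizontal axis, %) called higher (right) or lower (left) in DM, with the number tested in brackets and lines between the 4 classes. Dashed lines are the shares over all genes tested, 10.5% higher and 8.93% lower. Sterol synthesis and uptake reaches 48.0% to the right and purine and pyrimidine enzymes 32.1% to the left.

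Among membrane proteins, receptors and adhesion molecules changed in both directions, while channels, carriers and tetraspanins had more rises than falls. With median scaling this turned, and channels had 4 higher and 8 lower, carriers 8 and 13 and tetraspanins 2 and 3. The shares higher and lower were 13.3% and 6.67% for channels, 14.1% and 6.49% for carriers and 25% and 6.25% for tetraspanins. Over all genes, which also had more rises than falls, they were 10.5% and 8.93%. The tetraspanin median was 0.06, and that of all genes 0.07. Of 630 tested genes 92 rose and 56 fell, 23.5% called, with a median difference of 0.14. With median scaling the same class had 23 higher and 63 lower, with detected-probe median scaling 101 and 44, and 67 and 51 without DM replicate 2. The number called was 94 without GM replicate 1, 89 without GM replicate 2, 213 without DM replicate 1 and 66 on the 4 arrays with the replicate block, against 148.

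Of 75 G protein-coupled receptors 7 rose and 6 fell, and 5 and 7 without DM replicate 2. The share called, 17.3%, was below the 19.4% of all genes. Gpr20, an orphan receptor, was at 5.14 and 5.30 in GM and at 8.65 and 9.10 in DM. Both GM values were below detection and both DM values well above it, at least 12.2-fold higher (adjusted p = 7.2e-07). Gprc5c was at 5.38 and 5.26 in GM, detected on 1 array, and at 8.58 and 8.81 in DM, a rise of 3.38 (SE 0.31, adjusted p = 4.23e-06), although another probe for it differed by only 0.30. Avpr1a, a vasopressin receptor, went the other way, from 9.83 and 9.76 to 6.87 and 7.13 (-2.79, SE 0.32, adjusted p = 3.39e-05). The lysophosphatidic acid receptor Lpar4 rose by 1.74, and the orphan receptors Gpr176, detected on 1 DM array, and Gprc5a fell by 1.90 and 1.77.

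Among 67 receptor kinases and cytokine receptors 9 rose and 8 fell, and 6 and 8 without DM replicate 2. Tnfrsf12a, the receptor for the cytokine TWEAK, was at 12.68 and 12.35 in GM and at 10.60 and 9.07 in DM, a fall of 2.68 (SE 0.39, adjusted p = 0.000273). The platelet-derived growth factor receptor gene Pdgfrb was at 6.43 and 6.48 in GM and at 7.62 and 9.25 in DM (1.98, SE 0.43, adjusted p = 0.00496). Both DM arrays lay above GM, as the rule for naming genes required, but the DM arrays were 1.63 apart. On the 4 arrays alone it did not pass (adjusted p = 0.0544).

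Axon guidance genes, whose products steer cells through contact and gradients, were called often: 11 of 44 rose and 9 fell. That was 45.5% called, against 19.4% of all genes. Sema7a, a semaphorin anchored to the membrane, stood at 11.31 and 10.46 in GM and at 6.13 and 5.98 in DM. This fall of 4.83 (SE 0.31, adjusted p = 2.53e-07) was the largest of the membrane genes singled out, and all 15 alternatives called it. The ephrin receptor Epha2 was at 8.54 and 8.10 in GM and below detection in DM, at least 7.04-fold lower (adjusted p = 1.84e-06). Nrp1, a co-receptor for semaphorins and vascular growth factor, fell by 1.93 (SE 0.25), with other probes at -0.57 and -1.70, and the ephrin ligand Efna5 by 1.92 (SE 0.38). Rgma, a ligand of neogenin, rose from 6.65 and 6.24 to 8.89 and 9.75 (2.88, SE 0.30, adjusted p = 1.57e-05). The semaphorins Sema6a and Sema6b and the plexin receptor Plxnd1 rose too, Sema6a, detected on 1 GM array, by 2.20, Plxnd1 by 2.18 and Sema6b, not detected in GM, at least 4.53-fold. So within the semaphorins the direction differed between members. Other probes of Plxnd1 differed by 1.21 and 0.67.

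Of 62 adhesion molecules 5 rose and 7 fell, close to the shares over all genes. Cdh15, the cadherin of myoblasts, was at 10.30 and 10.28 in GM and at 12.12 and 13.42 in DM (2.48, SE 0.35, adjusted p = 0.000197). Cadm1, an immunoglobulin-type adhesion molecule, was at 8.77 and 9.37 in GM and at 5.97 and 5.70 in DM (-3.23, SE 0.36, adjusted p = 2.34e-05). The groups did not overlap in either gene, which the rule for naming genes required. Nectin3 fell by 1.54 (SE 0.28), although its other probes differed by 0.10 and -0.94.

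Integrins, the receptors for matrix, had 4 rises and 1 fall among 16 genes. Their median was nonetheless -0.18, with 10 of the 16 below 0. With median scaling 1 was higher and 1 lower, and on the 4 arrays alone 2 were higher and 0 lower. Itgb6 rose from 6.05 and 5.52 to 8.04 and 8.42 (2.45, SE 0.28, adjusted p = 3.25e-05). Itga7, which pairs into the laminin receptor of muscle, rose from 9.48 and 9.67 to 10.96 and 11.21 (1.51, SE 0.28, adjusted p = 0.00215). Tetraspanins and caveola proteins, which order membrane domains, had 8 rises and 2 falls among 32. Tspan33 was below detection in GM, at 5.12 and 4.99, and at 7.46 and 8.23 in DM, at least 5.97-fold higher (adjusted p = 7.97e-05). Cd82 rose from 10.74 and 11.26 to 12.81 and 14.31 (2.56, SE 0.39), and the caveola protein gene Cavin2 by 1.76 (SE 0.28). Tspan4 fell by 2.12 (SE 0.26), but another probe differed by 0.44, and with the mean of its probes the call was lost.

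Of 105 ion channel genes 14 rose and 7 fell, 20% called against 19.4% of all genes. Ryr1, the calcium release channel of the sarcoplasmic reticulum, was at 5.38 and 5.83 in GM and at 9.42 and 10.25 in DM (4.23, SE 0.36, adjusted p = 2.16e-06). Chrng, the fetal subunit of the acetylcholine receptor, was at 8.57 and 9.13 in GM and at 11.97 and 13.15 in DM (3.71, SE 0.37, adjusted p = 7.98e-06). Both were higher on each DM array by more than 2. The ATP-gated channel P2rx5 rose by 3.45 (SE 0.31), with another probe at 0.20, and the leak potassium channel Kcnk13, not detected in GM, rose at least 6.93-fold (adjusted p = 4.8e-06). The water channel Aqp5 was at 13.06 and 12.98 in GM and at 10.17 and 10.58 in DM (-2.65, SE 0.28, adjusted p = 1.44e-05), and Aqp1 fell by 1.81 (SE 0.29). The calcium-activated potassium channel Kcnn4, detected on 1 DM array, fell by 1.93 (SE 0.36).

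Solute carriers were the longest list, with 26 rises and 12 falls among 185, 20.5% called against 19.4% of all genes. Slc2a6, a hexose carrier, was at 5.48 and 5.60 in GM and at 8.61 and 9.60 in DM (3.56, SE 0.31, adjusted p = 2.74e-06). Slc22a4, a carrier of organic cations, rose by 2.38 (SE 0.30), the sodium and calcium exchanger Slc24a3 by 2.38 (SE 0.26) and the iron exporter Slc40a1 by 2.27 (SE 0.28). The organic anion carrier Slco4a1 was at 7.26 and 7.42 in GM and below detection in DM, at least 3.58-fold lower (adjusted p = 6.31e-06). The phosphate carrier Slc20a1 was at least 1.87-fold lower (adjusted p = 0.00316). Among 44 pumps and ABC transporters 8 rose and 4 fell. The calcium pump Atp2a1 of the sarcoplasmic reticulum, at 7.64 and 6.61 in GM, was at 12.72 and 13.62 in DM, a rise of 6.05 (SE 0.47, adjusted p = 1.08e-06). Fxyd5, a regulator of the sodium pump, was at 11.58 and 11.56 in GM and at 9.48 and 9.26 in DM (-2.20, SE 0.25, adjusted p = 2.74e-05), with siScramble lower still at 7.75 and 7.71. Of the membrane genes named as called above, Lpar4, Pdgfrb, Plxnd1, Itga7 and Cavin2 were not called with median scaling.

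Growth factors had more falls than rises, while most matrix genes that were called rose. Of 339 tested genes for secreted and matrix proteins 54 rose and 42 fell, 28.3% called, with a median difference of 0.11. With median scaling there were 12 higher and 48 lower, with detected-probe median scaling 51 and 34, and 38 and 43 without DM replicate 2. In all 59 were called without GM replicate 1, 60 without GM replicate 2, 116 without DM replicate 1 and 47 on the 4 arrays with the replicate block, against 96.

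Growth factors had 8 rises and 12 falls among 63. The hormone gene Stc1, whose product acts on calcium and phosphate balance, was below detection in GM at 4.64 and 5.10 and at 10.23 and 10.60 in DM. It was at least 35.4-fold higher (adjusted p = 2.91e-08), with a gap of more than 5 between the groups. Fgf21 was at 6.21 and 6.14 in GM and at 10.80 and 9.97 in DM (4.21, SE 0.32, adjusted p = 8.75e-07). Here DM replicate 1 was the higher array. Ptn, which encodes pleiotrophin, rose by 2.55 (SE 0.26) and the insulin-like growth factor Igf2 by 2.21 (SE 0.47), from 9.69 and 9.76 to 11.95 and 11.92.

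The falls were led by the prolactin-family proliferins and by Ccn2. Prl2c2 was at 10.22 and 9.92 in GM and at 4.70 and 4.53 in DM, where it was below detection, at least 23.7-fold lower (adjusted p = 1.53e-06). Prl2c3 was at least 26.8-fold lower (adjusted p = 2.43e-06), and Prl2c4, detected on 1 DM array, fell by 4.02 (SE 0.46). These genes are near-identical copies, so their probes may read each other. The siScramble arrays, also in DM, read 11.20 and 11.92 for Prl2c2 and 11.38 and 12.15 for Prl2c3, which lies above GM and not below it. The matrix-associated growth factor Ccn2 was at 12.08 and 11.96 in GM and at 7.29 and 7.59 in DM (-4.58, SE 0.28, adjusted p = 2.08e-07), and a second probe differed by -4.33.

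Of 19 TGF-beta, Wnt and Hedgehog ligands 4 rose and 4 fell. Inhba, which encodes an activin subunit, was at 9.03 and 9.23 in GM and at 7.01 and 4.89 in DM, detected on 1 DM array (-3.18, SE 0.56, adjusted p = 0.00129). Bmp4 fell from 10.52 and 10.66 to 8.78 and 8.37 (-2.02, SE 0.31, adjusted p = 0.000397). Gdf1, not detected in GM, was at least 3.09-fold higher (adjusted p = 0.00123). Binding proteins that hold such ligands moved with 6 rises and 4 falls among 31. The BMP antagonist Grem1 fell from 8.11 and 8.33 to below detection, at least 6.6-fold (adjusted p = 3.26e-06), while another antagonist of BMP ligands, Chrd, rose from 7.78 and 7.14 to 9.45 and 9.52 (2.03, SE 0.32, adjusted p = 0.000512). Igfbp3 rose by 3.58 (SE 0.33), with another probe at 1.56. Igfbp5, the insulin-like growth factor binding protein of muscle, rose from 14.10 and 13.41 to 15.74 and 15.85 (2.04, SE 0.28, adjusted p = 0.000148), with its other probes at 2.37 and 2.59.

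Cytokines and chemokines had 7 rises and 6 falls among 52, and 5 and 7 without DM replicate 2. The macrophage growth factor Csf1 was at 10.60 and 10.22 in GM and at 7.03 and 7.32 in DM (-3.23, SE 0.29, adjusted p = 3.33e-06). The chemokines Cx3cl1, Cxcl1 and Ccl2 fell as well, Cx3cl1 by 2.60 (SE 0.45, detected on 1 DM array), Cxcl1 by 2.09 (SE 0.29) and Ccl2 at least 2.38-fold, to below detection. C1qtnf3, an adiponectin-related secreted protein, rose from 10.58 and 11.16 to 12.98 and 13.85 (2.55, SE 0.33, adjusted p = 0.000112). Its other probes differed by 2.12 and 0.57.

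Among 98 proteases and inhibitors 13 rose and 10 fell. Plaur, the receptor that gathers urokinase at the cell surface, was at 9.05 and 8.68 in GM and at 5.13 and 5.13 in DM, below detection there, at least 10.3-fold lower (adjusted p = 1.85e-06). The metalloprotease inhibitor Timp1 fell from 14.40 and 14.65 to 11.27 and 11.08 (-3.35, SE 0.25, adjusted p = 8.75e-07), and a second probe gave -3.32. Mmp2, a gelatinase, rose from 11.0 and 11.02 to 13.06 and 13.53 (2.28, SE 0.26, adjusted p = 3.16e-05). Pi16 rose at least 6.85-fold from below detection, and the aggrecanase gene Adamts4 by 2.15 (SE 0.31). Without DM replicate 2 this list had 5 higher and 11 lower.

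Collagens and other matrix proteins had 16 rises and 6 falls among 76, with a median of 0.31. Col6a1 and Col6a2 encode chains of collagen VI, which surrounds muscle fibres. Col6a1 was at 9.76 and 9.93 in GM and at 13.06 and 14.23 in DM (3.80, SE 0.33, adjusted p = 2.73e-06), and Col6a2 was at 6.42 and 6.41 in GM and at 10.18 and 10.55 in DM (3.95, SE 0.32, adjusted p = 1.64e-06). Spon2 rose by 3.74 (SE 0.32) and Col16a1 by 1.97 (SE 0.27). The calcification inhibitor Mgp was at 13.87 and 13.74 in GM and at 10.75 and 8.96 in DM (-3.95, SE 0.43, adjusted p = 2.17e-05). Lox, which cross-links collagen, fell by 2.21 (SE 0.42), Col8a2 by 2.22 (SE 0.36) and the basement membrane protein gene Nid1 by 1.91 (SE 0.26). With median scaling this list had 3 higher and 7 lower, and without DM replicate 2 it had 12 and 8. Chrd, C1qtnf3, Mmp2, Adamts4 and Col16a1 were not called with median scaling.

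Transcription factors had about as many falls as rises. Of 377 tested 46 rose and 50 fell, 25.5% called, with a median difference of 0.07, which was also that of all genes. With median scaling there were 10 higher and 55 lower, with detected-probe median scaling 47 and 36, and 30 and 38 without DM replicate 2. The number called was 62 without GM replicate 1, 49 without GM replicate 2, 139 without DM replicate 1 and 43 on the 4 arrays with the replicate block, against 96.

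Helix-loop-helix factors and their inhibitors held 13 rises and 5 falls among 50. Myog rose by 6.67 (SE 0.52, adjusted p = 1.04e-06), although a second probe differed by 1.08. Id1, Id2 and Id3 all fell. Id1 was at 11.49 and 11.64 in GM and at 8.39 and 7.53 in DM (-3.60, SE 0.31, adjusted p = 2.43e-06). For Id2 the levels were 9.24 and 9.31 in GM and 5.92 and 6.0 in DM (-3.32, SE 0.25), and Id3, detected on 1 DM array, fell by 3.29 (SE 0.44). The Notch target Heyl was below detection in GM and at 8.32 and 8.60 in DM, at least 9.1-fold higher (adjusted p = 3.03e-06). Its relative Hey1 rose from 7.17 and 7.47 to 10.31 and 10.51 (3.09, SE 0.27, adjusted p = 2.41e-06). Mycl, of the MYC family, rose from 8.12 and 7.87 to 11.07 and 11.80 (3.44, SE 0.30). Twist2, an inhibitor of MyoD, fell from 9.50 and 9.27 to 6.80 and 6.49 (-2.74, SE 0.26, adjusted p = 4.98e-06).

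Zinc fingers of the KLF, EGR, GATA, GLI, SNAIL, ZBTB and PRDM families had 7 rises and 13 falls among 68. Zbtb18 was at 7.93 and 7.85 in GM and at 11.0 and 11.60 in DM (3.41, SE 0.28, adjusted p = 1.56e-06). Its probes disagreed, the other 4 giving 0.42, 1.72, 2.45 and -0.06. Casz1 and Osr2, both below detection in GM, were at least 4.86-fold and 3.92-fold higher, and the repressor Bcl6 rose by 2.21 (SE 0.29). Egr1 and Egr2, which serum induces within minutes, were lower: Egr1 was at 13.19 and 12.70 in GM and at 10.94 and 11.80 in DM (-1.57, SE 0.31, adjusted p = 0.00306), and Egr2, detected on 1 DM array, fell by 2.26 (SE 0.39). Fos, of the bZIP family, likewise fell from 8.02 and 7.78 to 6.09 and 6.18 (-1.76, SE 0.26, adjusted p = 0.000286). On the siScramble arrays Egr1 read 13.79 and 13.82 and Fos 10.09 and 9.80, above GM in both. Egr1 did not pass on the 4 arrays alone, with or without the replicate block.

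Homeobox and paired box genes had 9 rises and 4 falls among 68. The balance was lost under several alternatives, with 5 and 5 without DM replicate 2, 1 and 3 on the 4 arrays alone, 2 and 3 with the replicate block and 0 and 4 with median scaling. The distal-less genes Dlx1, Dlx2 and Dlx3 fell. Dlx3 was at 7.79 and 7.47 in GM and below detection in DM, at least 4.36-fold lower (adjusted p = 0.000311). Dlx2 was at least 1.97-fold lower (adjusted p = 7.44e-05), and Dlx1 fell by 2.19 (SE 0.34) with 1 DM array below detection. Another probe of Dlx2 differed by -0.73. Zeb1, a repressor, rose from 9.33 and 9.83 to 11.01 and 11.40 (1.63, SE 0.28, adjusted p = 0.00116).

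Forkhead, SOX, T-box, ETS and RUNX factors had 2 rises and 9 falls among 52, and 1 and 6 without DM replicate 2. Etv4, an ETS factor downstream of growth factor signals, was at 8.53 and 8.87 in GM and at 5.24 and 5.68 in DM, detected on 1 DM array (-3.24, SE 0.28, adjusted p = 2.3e-06). Foxc2 fell by 2.24 (SE 0.30) and Sox11 by 1.52 (SE 0.26). Sox8 was below detection in GM and at 8.14 and 7.31 in DM, at least 5.47-fold higher (adjusted p = 3.84e-05), and a second probe gave 3.28. Sox4, the other that rose, was at 7.72 and 8.22 in GM and at 8.80 and 11.09 in DM (1.98, SE 0.51, adjusted p = 0.0136). It rested on DM replicate 2, and without that array the difference was 0.83 (adjusted p = 0.0815). The call was also lost without GM replicate 1 (adjusted p = 0.115) and without GM replicate 2 (adjusted p = 0.0516).

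Of 25 nuclear receptors 2 rose and 1 fell, and 0 and 1 without DM replicate 2. The fall was that of the adipocyte regulator Pparg, at 7.83 and 7.77 in GM and at 5.52 and 5.35 in DM, detected on 1 DM array (-2.36, SE 0.29, adjusted p = 7.12e-05). Signal-regulated factors, with the co-regulators counted among them, had 10 rises and 14 falls among 81. Csrp3, a LIM protein of the Z-disc and nucleus, was at 5.31 and 5.69 in GM and at 10.01 and 9.72 in DM (4.36, SE 0.33, adjusted p = 8.75e-07). The LIM genes Fhl1 and Fhl2 fell, Fhl1 from 12.06 and 11.96 to 9.77 and 10.20 (-2.03, SE 0.26) and Fhl2 by 2.08 (SE 0.30). Cited2, a co-activator that binds p300, was at 11.40 and 11.47 in GM and at 9.09 and 9.42 in DM (-2.17, SE 0.26, adjusted p = 5.47e-05). Stat3 rose by 2.09 (SE 0.42) and Tead4 by 1.82 (SE 0.32), each with a probe that moved little (0.21 and -0.03). Zeb1, Bcl6, Sox4, Stat3 and Tead4 were not called with median scaling.

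Metabolic enzymes had more rises than falls: 85 rose and 52 fell of 518, 26.4% called, with a median difference of 0.14. The lists differed. The called genes of the sterol, glycogen and fatty acid lists were mostly higher, and those of the nucleotide and one-carbon lists mostly lower. In each of these lists but the sterol list most genes did not pass. With median scaling there were 12 higher and 60 lower, with detected-probe median scaling 78 and 42, and 61 and 43 without DM replicate 2. In all 77 were called without GM replicate 1, 71 without GM replicate 2, 223 without DM replicate 1 and 49 on the 4 arrays with the replicate block, against 137.

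Sterol synthesis and uptake had the highest median of the 38 lists, 0.77, with 12 rises and 1 fall among 25. Its median lay above 0 under each scaling, at 0.22 with median scaling and 1.03 with detected-probe median scaling. With median scaling only 3 of its genes were called, 2 higher and 1 lower. Mvd, of the mevalonate pathway, was at 7.02 and 7.38 in GM and at 9.44 and 9.62 in DM (2.33, SE 0.25, adjusted p = 2.16e-05). Npc1, which exports cholesterol from lysosomes, rose from 9.89 and 9.59 to 11.97 and 12.56 (2.53, SE 0.28, adjusted p = 2.34e-05), with its other probes at -0.07 and 2.19. Fdps, the farnesyl diphosphate synthase gene, rose by 1.89 (SE 0.29). The sterol regulator Srebf2 was at 8.53 and 8.81 in GM and at 9.74 and 11.56 in DM (1.98, SE 0.44, adjusted p = 0.00628). Its DM arrays were 1.82 apart, and its call was lost on the 4 arrays alone and, at 1.84, without GM replicate 1. A second probe of Srebf2 was at 7.18 and 7.25 in GM and at 7.79 and 7.54 in DM, a difference of 0.45.

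Genes of fatty acid, triglyceride and phospholipid synthesis had 13 rises and 3 falls among 52, and those of fatty acid and ketone oxidation 10 rises and 2 falls among 41. Mgll, a monoglyceride lipase, rose from 5.54 and 5.72 to 6.83 and 7.80 (1.69, SE 0.35), and Pcyt2, of phosphatidylethanolamine synthesis, from 7.62 and 7.72 to 9.0 and 9.58 (1.62, SE 0.27). Other probes differed by 0.51 and 2.26 for Mgll and by 0.35 and 0.69 for Pcyt2. Acsl3 was at 8.83 and 8.33 in GM and at 10.65 and 10.38 in DM (1.93, SE 0.27, adjusted p = 0.000171). The fatty acid binding protein gene Fabp5 fell to below detection, at least 3.45-fold (adjusted p = 0.000706). Both lists lost all of their rises with median scaling, which called 0 higher and 2 lower in the first and 0 higher and 3 lower in the second. Without DM replicate 2 the synthesis list had 7 higher and 1 lower. Acss2, which makes acetyl-CoA from acetate and stands on the citric acid cycle list (4 rises and no fall among 23), rose from 6.88 and 6.59 to 9.14 and 9.48 (2.58, SE 0.27, adjusted p = 1.24e-05), with another probe at 0.61.

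Of 20 glycogen and hexose genes 8 rose and none fell, with a median of 0.53, but with median scaling 0 were called. Gaa, the lysosomal glucosidase, was at 7.81 and 6.80 in GM and at 9.04 and 9.66 in DM (2.05, SE 0.35, adjusted p = 0.000963). Of 26 glycolysis genes 7 rose and 2 fell, with a median of 0.15, and with median scaling 1 was higher and 3 lower. The pentose phosphate list had 1 rise and 2 falls among 14. Pgam2, the muscle phosphoglycerate mutase, was at 5.34 and 4.78 in GM, detected on 1 array, and at 9.21 and 8.92 in DM (4.0, SE 0.40, adjusted p = 1e-05). The phosphofructokinase genes Pfkl and Pfkm and the aldolase gene Aldoa rose by 1.90, 1.65 and 1.57. Other probes of Pfkm differed by 0.18 and 1.63. Pdk4, the kinase that closes the entry of pyruvate into mitochondria, was at 9.01 and 9.33 in GM and at 7.26 and 5.82 in DM (-2.63, SE 0.44, adjusted p = 0.000829). The glycerol phosphate dehydrogenase Gpd2 fell by 2.03 (SE 0.35), with another probe at -0.45.

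Purine and pyrimidine enzymes, which feed DNA synthesis, had 2 rises and 17 falls among 53 and a median of -0.52. This direction held under each scaling, with medians of -1.29 and -0.48. Tk1, thymidine kinase, was at 11.25 and 11.69 in GM and at 9.44 and 9.01 in DM (-2.24, SE 0.28, adjusted p = 8.31e-05), and a second probe gave -1.98. Rrm2, of ribonucleotide reductase, was at 10.73 and 10.10 in GM and at 8.16 and 8.25 in DM (-2.21, SE 0.30), with other probes at -0.02 and -2.14. Adssl1, the adenylosuccinate synthase of muscle, went up, from 8.69 and 8.83 to 10.41 and 11.14 (2.02, SE 0.28, adjusted p = 0.000166). Its other probes differed by 1.31 and -0.22. Serine, glycine and one-carbon enzymes had no rise and 4 falls among 17, with a median of -0.51. Phgdh, the first enzyme of serine synthesis, was at 8.99 and 8.31 in GM and at 6.74 and 5.05 in DM, detected on 1 DM array (-2.75, SE 0.45, adjusted p = 0.000667). Shmt1 fell by 2.16 (SE 0.25), with another probe at -0.89. Without DM replicate 2 this list had 8 falls.

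Amino acid and creatine enzymes had 10 rises and 3 falls among 33. Ckm, muscle creatine kinase, was below detection in GM and at 9.84 and 10.36 in DM, at least 28.4-fold higher (adjusted p = 1.44e-06). Its brain-type relative Ckb was at 10.72 and 10.60 in GM and at 14.22 and 15.20 in DM (4.06, SE 0.31, adjusted p = 8.75e-07). Gamt, which makes creatine, rose from 8.83 and 8.27 to 11.98 and 11.03 (2.96, SE 0.35, adjusted p = 4.41e-05). The alanine transaminase Gpt2 was at 9.58 and 9.05 in GM and at 12.62 and 13.89 in DM (3.94, SE 0.45, adjusted p = 3.17e-05). Polyamine genes moved in both directions, with 3 rises and 3 falls among 9. Agmat rose at least 3.5-fold from below detection (adjusted p = 0.000152), Smox, which oxidizes spermine, rose by 1.98 (SE 0.31) and Mtap fell by 1.95 (SE 0.34).

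Glutathione, thioredoxin and peroxide enzymes had 4 rises and 9 falls among 49. Nqo1, a quinone reductase, was at 8.39 and 8.52 in GM and at 5.53 and 4.80 in DM, detected on 1 DM array (-3.29, SE 0.41, adjusted p = 7.61e-05). Gsta1 was at 9.14 and 8.90 in GM and at 6.65 and 6.08 in DM (-2.66, SE 0.33, adjusted p = 6.48e-05). On the siScramble arrays it read 11.38 and 12.12, above GM. Gsta2, a close copy whose probe may read Gsta1 and which was detected on 1 DM array, gave -2.66 (SE 0.46). Txnip, which binds thioredoxin, rose from 8.47 and 8.51 to 10.18 and 10.12 (1.66, SE 0.26, adjusted p = 0.000507). Among 24 heme and iron genes 3 rose and 2 fell. Slc40a1 was at 5.44 and 5.96 in GM, at 7.82 and 8.11 in DM and at 9.98 and 10.06 in siScramble. In the ganglioside pathway St3gal5 rose from 9.17 and 9.17 to 11.38 and 11.64 (2.34, SE 0.25, adjusted p = 1.64e-05), 1 of 2 rises beside 2 falls among 25 sphingolipid genes.

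Oxidative phosphorylation was the list with the highest share of genes more than 1 apart between the DM arrays, 33.8%. Of 80 subunit genes 6 rose and 1 fell, below the share over all genes. When DM replicate 2 was left out, 5 rose and none fell, with a median of 0.42. When DM replicate 1 was left out, 8 rose and 24 fell, with a median of -0.20. The difference of the list median within the BeadChip of replicate 1 was 0.36 and within that of replicate 2 -0.15. The muscle isoform Cox6a2 rose on both, from 6.33 and 5.99 in GM to 10.28 and 9.60 in DM (3.78, SE 0.45, adjusted p = 4.39e-05), as did Cox7a1, from 6.53 and 6.26 to 8.71 and 7.77 (1.85, SE 0.36, adjusted p = 0.00242). Of the metabolic genes named as called above, Srebf2, Fdps, Mgll, Pcyt2, Acsl3, Gaa, Pfkl, Pfkm, Aldoa, Adssl1, Smox, Txnip and Cox7a1 were not called with median scaling.

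Some of the largest changes were in genes of no list. Ky, a muscle protein lost in kyphoscoliotic mice, was below detection in GM and at 9.74 and 10.51 in DM, at least 29-fold higher (adjusted p = 4.67e-07). Tgm2, transglutaminase, was at 7.09 and 6.09 in GM and at 11.66 and 11.93 in DM (5.20, SE 0.32, adjusted p = 2.4e-07). The imprinted gene Mest rose from 7.77 and 7.58 to 11.80 and 12.57 (4.51, SE 0.29, adjusted p = 2.53e-07), with its other probes at 4.75 and 4.89. Hdac11, a histone deacetylase, was at least 17.2-fold higher and Myo18b at least 10.7-fold higher, both from below detection. Fndc5, the precursor of irisin, was at 4.90 and 5.06 in GM, below detection, and at 8.93 and 9.51 in DM, at least 15.4-fold higher (adjusted p = 3.12e-07).

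Falls outside the lists included feedback inhibitors of growth factor signals. Errfi1, an inhibitor of EGF receptors, was at 11.90 and 12.29 in GM and at 8.69 and 8.51 in DM (-3.49, SE 0.32, adjusted p = 4.13e-06). The ERK phosphatase gene Dusp5 was at least 4.75-fold lower, to below detection (adjusted p = 2.59e-05). Phlda1 was at 10.23 and 10.61 in GM, at 7.39 and 7.29 in DM (-3.08, SE 0.26) and at 10.39 and 10.30 in siScramble. Lce1g and Sprr2k, members of families of the cornified envelope of skin, were at least 9.11-fold and 6.59-fold lower. Actg2, smooth muscle gamma actin, fell from 12.72 and 13.03 to 9.41 and 10.18 (-3.08, SE 0.30, adjusted p = 6.31e-06), and the annexin Anxa3 by 3.08 (SE 0.33). These genes were singled out by size alone and stand for no group.

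**Figure D3:**
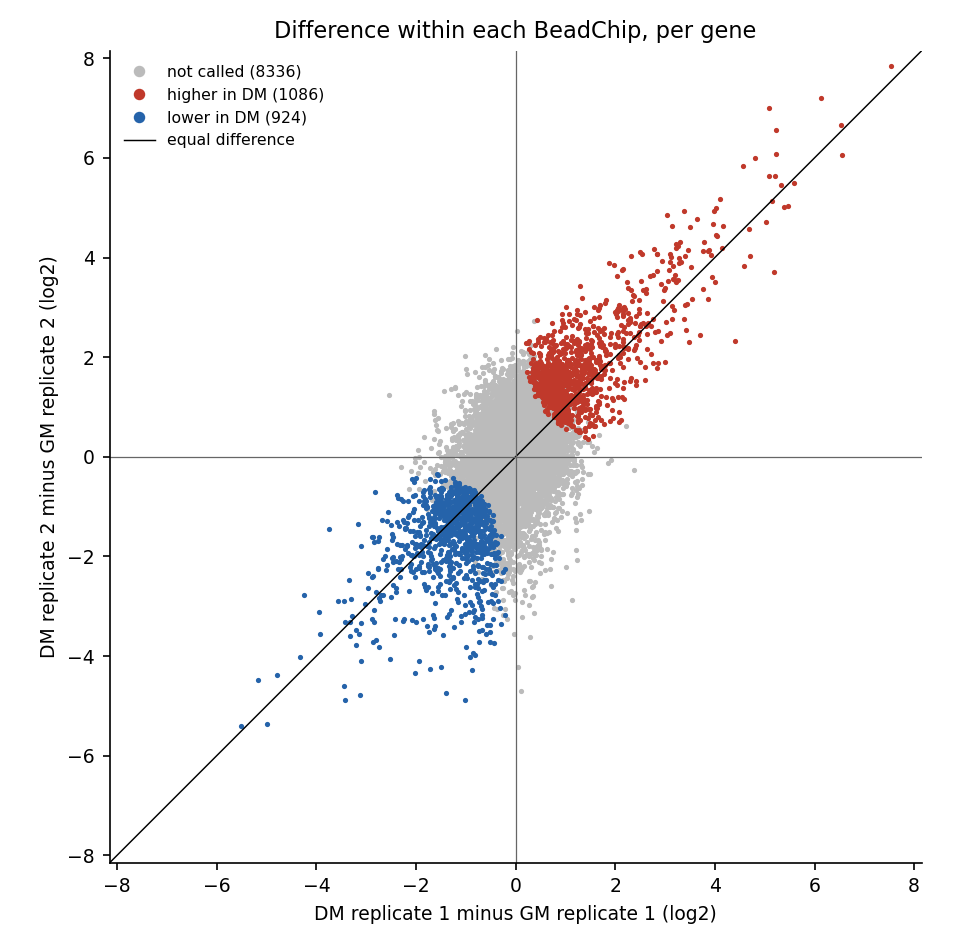
Difference between DM and GM per gene on the BeadChip of replicate 1 (horizontal axis, log2) and on that of replicate 2 (vertical axis, log2), with equality drawn as a line. Red points are the 1086 genes called higher, blue points the 924 called lower and grey points the 8336 not called. Most red points lie above the line, 851 of 1086.

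How far the DM replicates agreed can be read within each BeadChip, where 1 DM array stands beside 1 GM array. The difference correlated at 0.65 between the chips across genes, which are not independent replicates, and had the same sign in 6850 genes (66.2%). All 2010 called genes had the same sign on both, which a call nearly requires. It passed 1 in size in 1586 genes on the chip of replicate 1 and in 3169 on that of replicate 2. Both passed it the same way in 1018 genes, 64.2% of the first set and 32.1% of the second, and in opposite directions in 23. The standard deviation of the difference was 0.84 and 1.11. For genes called higher the median was 1.08 on the first chip and 1.64 on the second, and for genes called lower -1.20 and -1.52. Against the GM array of the same chip, the rise was larger on the chip of replicate 2 in 851 of 1086 genes, and the fall in 570 of 924.

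**Figure D4:**
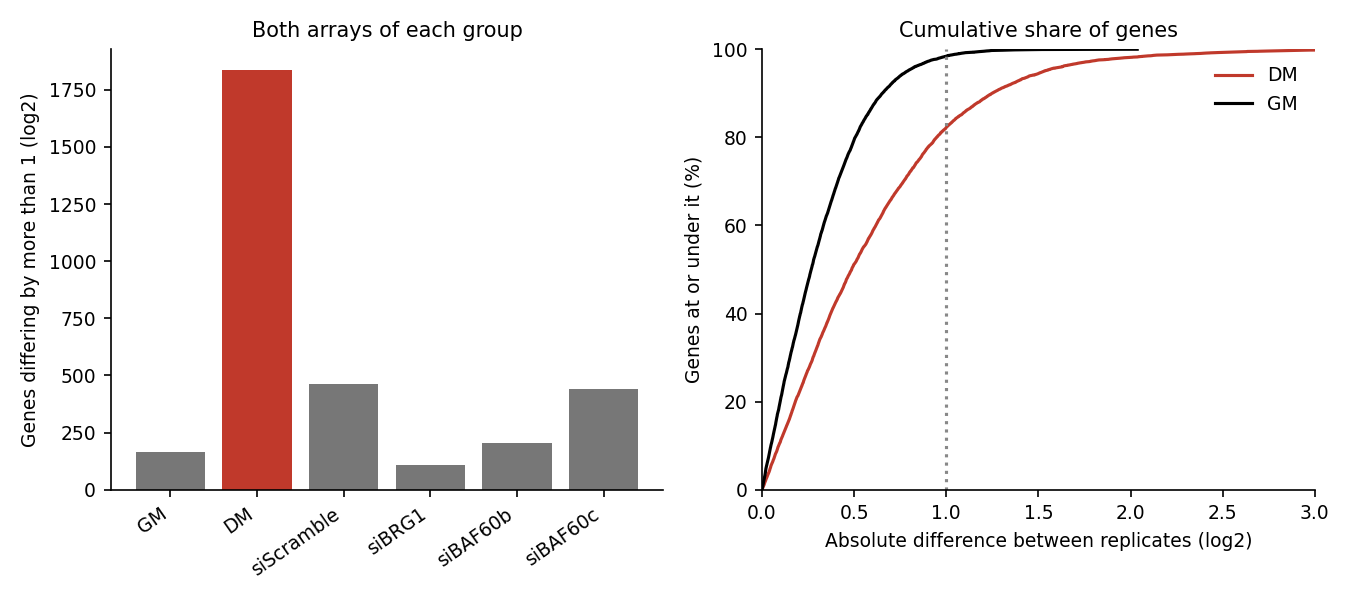
Left, number of genes whose 2 arrays differed by more than 1 (log2) in each group, with DM at 1836 and the other groups between 108 and 462. Right, cumulative share of genes (%) by absolute difference between replicates (log2) for DM and GM, with a dotted line at 1.

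The 2 DM arrays differed by more than 1 in 1836 genes (17.7%) and by more than 2 in 192. The GM arrays did so in 165 genes and in 1. The median absolute difference was 0.49 in DM and 0.27 in GM. In 828 genes DM replicate 1 was higher (8.00%) and in 1008 DM replicate 2. Of the 1836 genes 376 were called and 1460 were not, 28 also differed between the GM arrays, and in 943 the DM arrays lay on opposite sides of their GM array. DM replicate 2 was the array farther from the GM mean in 1475 of them. It was also farther from the siScramble mean in 1565. Correlation with the 8 transfected arrays was 0.963 to 0.972 for DM replicate 1 and 0.923 to 0.929 for DM replicate 2. Without background correction 615 genes differed by more than 1 in DM, against 7 in GM and 3 to 32 in the transfected groups, and in the authors' values 636 against 7 in GM. The DM correlation was 0.951 in both. Among genes above the median level it was 0.892, and 990 differed, against 67 in GM.

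Of the 10 genes with the widest gaps between the DM arrays, 5 each way, only Mtch2, Hnrnpa2b1, Selenof and Micall2 had another probe. Mtch2, a mitochondrial outer membrane protein, was at 10.19 and 10.20 in GM and at 10.29 and 5.49 in DM. DM replicate 1 was at the GM level and DM replicate 2 was 4.80 lower, while the other 2 probes of the gene differed between DM and GM by -0.08 and -0.04. Hnrnpa2b1, which encodes an RNA-binding protein, was at 9.50 and 5.20 in DM, and a second probe of it at 8.37 and 7.59. Car3, Selenof and Gm5643 were 3.91, 3.79 and 3.72 lower on DM replicate 2. In the other direction Prrc2a, Tmem94, Atg9a, Sox4 and Micall2 were 2.13 to 2.46 higher there. A second probe of Micall2 read 7.05 and 7.92. Of 679 genes that differed by more than 1 between the DM arrays and had another probe, 223 (32.8%) had one that differed by more than 1 the same way. Among probes above the median level it was 121 of 234 (51.7%). For comparison, of 613 called genes with a difference above 1 between DM and GM and another probe, 304 (49.6%) had one that did the same. Among probes above the median level this was 141 of 198 (71.2%), against the 51.7% for the gap between the DM arrays. These 2 shares are not like for like. The called genes had passed the test and their differences are between means of 2 arrays, while the gaps are between single arrays and met no test.

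**Figure D5:**
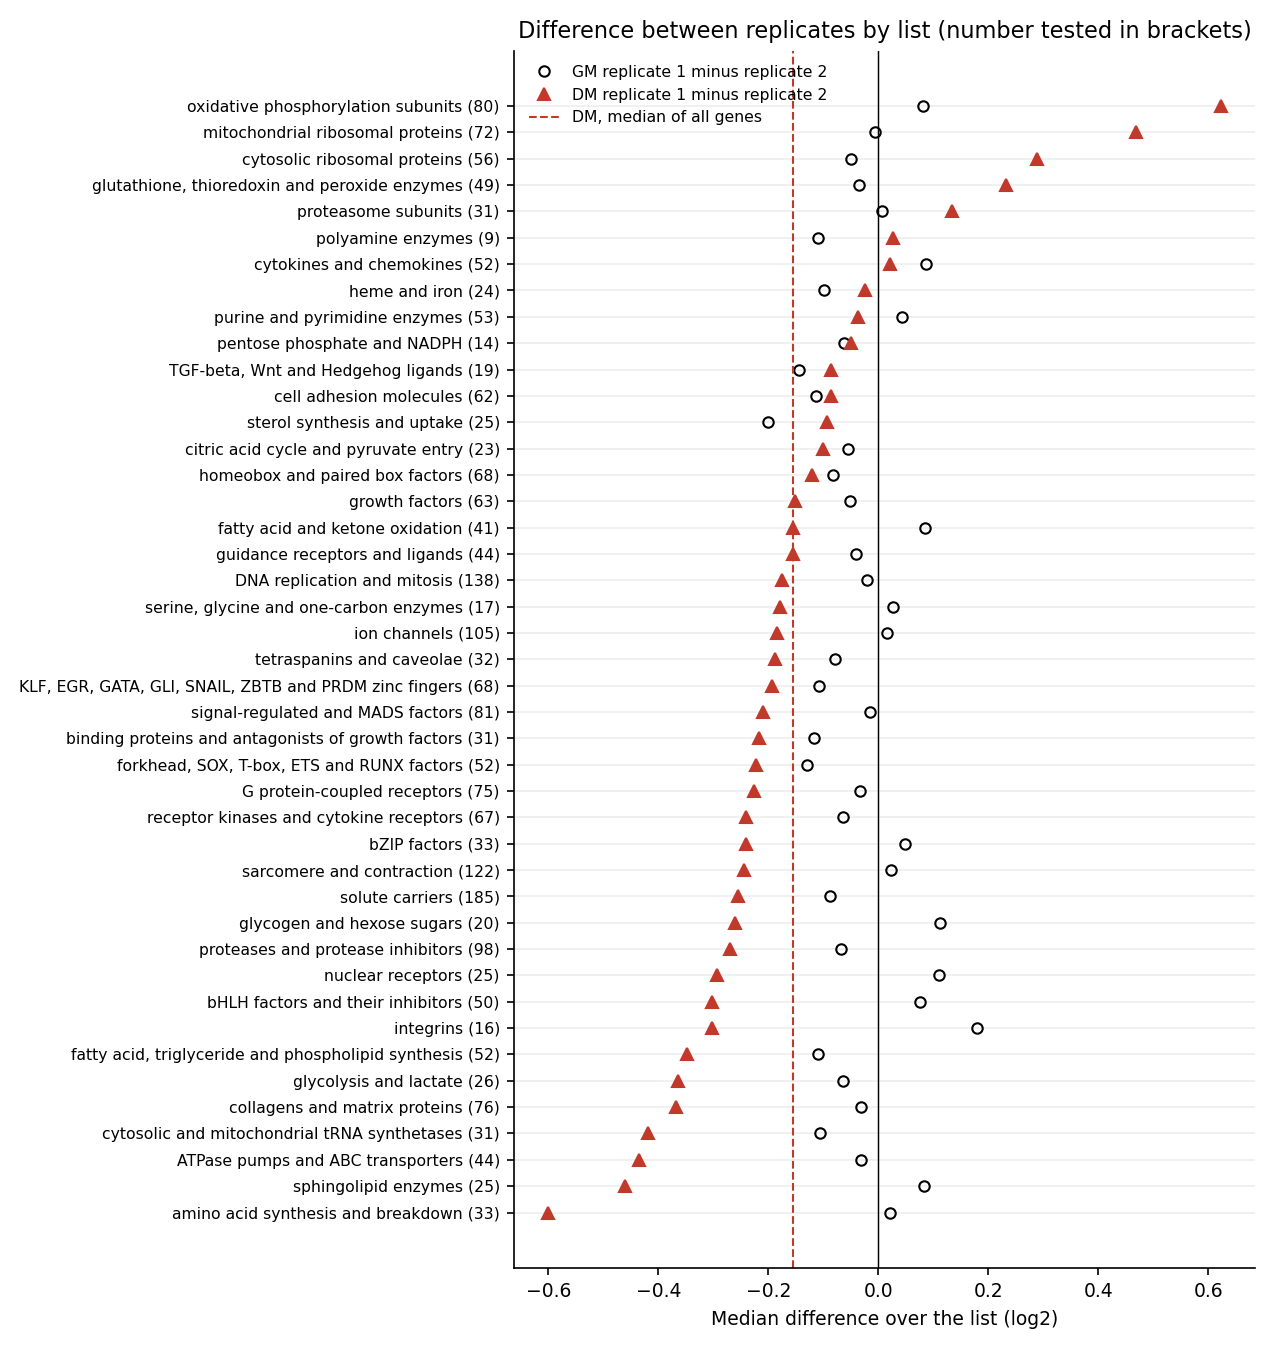
Median difference between replicate 1 and replicate 2 (log2, horizontal axis) over each list, as triangles for DM and circles for GM, with the number tested in brackets. Oxidative phosphorylation subunits lie at 0.62 in DM and 0.08 in GM, and amino acid enzymes at -0.60 and 0.02. The dashed line is the DM median of all genes, -0.15.

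The difference between the DM arrays varied between lists. Oxidative phosphorylation subunits were higher on DM replicate 1, by a median of 0.62 against -0.15 for all genes, with 27 of 80 higher by more than 1 and none lower. Mitochondrial ribosomal proteins had a median of 0.47 (17 of 72 higher, none lower) and cytosolic ribosomal proteins 0.29 (10 of 56 higher, none lower). Proteasome subunits had a median of 0.13 (5 of 31 higher, 1 lower). These lists of ribosomal and proteasome genes were written after the replicates had been compared. Glutathione and peroxide enzymes had a median of 0.23. At the other end amino acid enzymes had a median of -0.60, sphingolipid enzymes -0.46, pumps and ABC transporters -0.44, tRNA synthetases -0.42 and matrix proteins -0.37. In the matrix list 13 of 76 were higher on DM replicate 2 by more than 1 and 4 on DM replicate 1. For GM the same medians lay between -0.20 and 0.18 in every list drawn. The 4 classes differed less, with 14.4% of membrane, 13.6% of secreted, 16.7% of transcription factor and 21.4% of metabolic genes apart by more than 1, against 17.7% of all genes.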

How the data were processed

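RNA of 12 samples was read on Illumina mouse BeadChips. The deposited table, per the file headers, holds for each of 45281 probes a non-normalized intensity and a detection p-value per array. The authors' processed values, deposited for 23165 probes, served as an alternative. The neqc function of limma 3.58.1 (R 4.3.3, offset 16) removed background by the detection p-values, applied quantile normalization and gave log2 levels. A probe was kept if detected at p under 0.05 on at least 2 of 12 arrays, which left 17565, and a gene was read from its brightest probe (3438 genes had several). Names came from GEO's platform annotation: 19589 of the listed probes had 1 gene, 8 had several and 3568 had none. The fit (lmFit, eBayes) used all 6 groups, with Benjamini-Hochberg adjustment over 10346 genes. It was tested on data simulated with the same spread in every group, which does not cover the wider spread of DM.

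The genes named are, per list, the up to 4 largest rises and 4 largest falls among called genes whose DM arrays lay both on one side of both GM arrays, and the 10 each way in no list. Lists were built partly by how symbols start, so a few members are not of the family named. The members, lists and rule were chosen with earlier results of these data known, and 3 lists and 1 scaling were added after the replicates had been compared. Replicate number matched BeadChip for GM and DM, per the array identifiers, and the deviations of same-numbered arrays correlated at 0.058. Probes without a gene name were not used.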

Additional observations from a re-analysis of the deposited data

How the results depend on the processing

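With 2 arrays a group, both the counts and the balance of directions moved with the processing. Against 2010 genes called (1086 higher, 924 lower), the 4 arrays alone gave 730 (412 and 318), the replicate block on them 665 (377 and 288) and array weights, with DM at 0.33, 947 (518 and 429). The replicate block by BeadChip over 12 arrays gave 2376. Leaving out 1 array gave 937 to 3471 calls, 521 to 2016 higher and 416 to 1455 lower. Median scaling gave 199 higher. The share of calls that were higher was 54.0%, 49.7% without DM replicate 2, 14.6% with median scaling and 62.1% with detected-probe median scaling, a scaling chosen after seeing the data. For membrane genes (148 called) the 4 arrays gave 74, the replicate block 66, median scaling 86, weights 82 and leaving out 1 array 89 to 213. Secreted genes (96) gave 51, 47, 60, 59 and 59 to 116. Transcription factors (96) gave 41, 43 and, with weights, 52, and 49 to 139. Metabolic genes (137) gave 53, 49, 72, 71 and 71 to 223. The correlation of the DM arrays was 0.892 among genes above the median level, and the genes more than 1 apart numbered 615 without background correction, 636 in the authors' values and 990 above the median level. Of 263 named genes 136 were called under all 15 alternatives. Gstm2 turned sign with median scaling, at -0.034. The cause of these changes was not tested. Signal over background limits dim genes, for which only a bound is given.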
